A study of Homo sapiens with 12 samples.

Results

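SFRP1 encodes secreted frizzled-related protein 1, an extracellular inhibitor of Wnt signalling. Its single row, 1 gene among 45372 rows of the deposited table and 1 of 12878 genes tested, is described over all 12 libraries. The gene was chosen from these data for its fall across the dark cultures and its high level after 42 irradiations, so the values of those comparisons are a description with no test behind them. The cells were HaCaT, a spontaneously immortalized human keratinocyte line whose labelled genotype is wild-type. The blue_3, blue_14 and blue_42 cells had received 3, 14 or 42 irradiations, and the dark_3, dark_14 and dark_42 cells were their matched controls, with 2 libraries in each group, lettered a and b. Irradiated cells stood in phosphate-buffered saline under a 408 nm LED for 50 J per cm2 at 4.6 mW per cm2, in 3 sessions a week over at most 14 weeks. The dose was set by the submitters to kill 50% of the cells, so irradiated libraries come from the cells that remained. Cells were passaged throughout, and the number of irradiations and the time in culture cannot be told apart within the dark series or within the irradiated series. The labels name no separate cultures behind the letters a and b, so a p-value reflects only how far these libraries spread, and that spread may be technical.

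Wnt proteins are secreted lipid-modified ligands that bind frizzled receptors together with LRP5 or LRP6. Binding halts the destruction of beta-catenin, which then enters the nucleus and activates genes with TCF and LEF factors, while other Wnt routes steer cell polarity and movement. SFRP1 carries a cysteine-rich domain resembling that of the frizzled receptors and can bind Wnt proteins outside the cell. It is known as a gene silenced by promoter methylation in many carcinomas, and in human skin it is known from the dermal papilla of the hair follicle, where it restrains Wnt signalling.

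The libraries held 2073160 to 8183941 counts, and 3 counts of a gene, the floor used here, stood for 0.364 to 1.43 CPM. CPM is the count scaled to a common library total after TMM scaling, and the assay reads tags near the 3' end of transcripts, so no length enters the level. All 10 keratinocyte markers were detected in every library, and their summed level ran from 4377 to 6973 CPM. Melanocyte markers summed to at most 1.91 CPM, endothelial markers to at most 5.73 CPM and leukocyte markers to at most 4.77 CPM. The 10 fibroblast markers summed to 49.5 to 106 CPM, most of it FBLN1, with DPT at 0 in every library and COL1A2 at 2 counts in all. The 10 neuron markers summed to 71.7 to 218 CPM, with NEFL the most abundant of them, and the 6 glia markers to 155 to 287 CPM, most of it MBP, with OLIG2 at 0.

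SFRP1 was highest after 42 irradiations and lowest in the dark cells of the same stage. At each of the 3 stages both irradiated libraries had a higher level than both dark libraries, and the dark libraries had a lower level at each later stage. Counts of SFRP1 were 170 and 153 in blue_3 libraries a and b, against 103 and 129 in dark_3. These corresponded to 22.5 and 24.8 CPM in blue_3, against 16.3 and 18.6 CPM in dark_3. At 14 irradiations the counts were 41 and 32 in blue_14 and 20 and 54 in dark_14, which came to 11.8 and 15.3 CPM in blue_14 and 5.73 and 6.90 CPM in dark_14. The raw counts of the groups overlapped at this stage, and the CPM values, which allow for library size, did not. At 42 irradiations SFRP1 had 350 and 459 counts in blue_42 and 27 and 28 counts in dark_42, or 45.2 and 55.7 CPM in blue_42 and 3.46 and 3.64 CPM in dark_42. Every library stood above the floor of 3 counts.

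**Figure D1:**
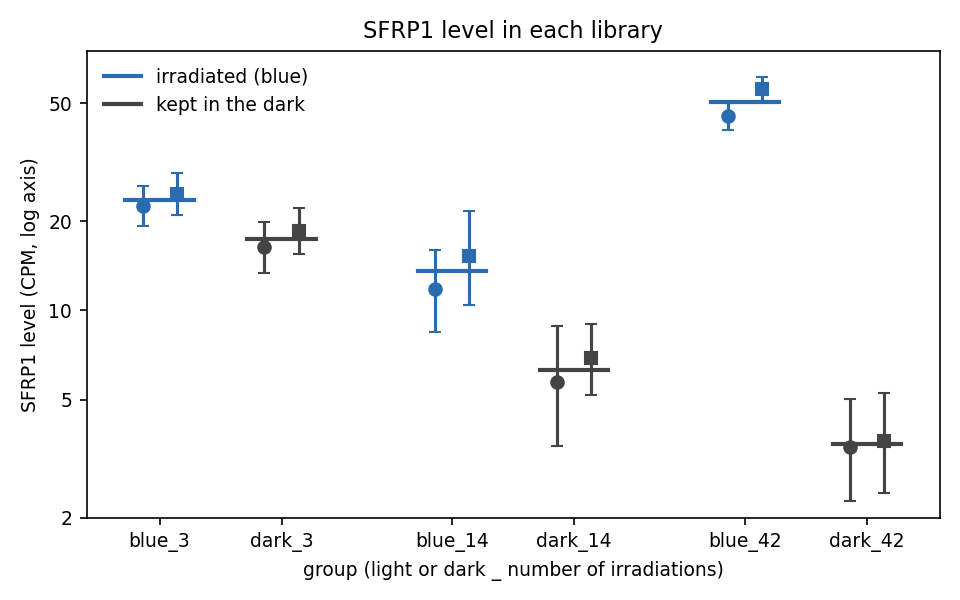
SFRP1 level in CPM on a log axis for each library (circle, library a; square, library b) with exact 95% Poisson intervals of the count, and a line at each group mean; blue libraries are irradiated and grey ones dark. The blue_42 libraries stand at 45.2 and 55.7 CPM and the dark_42 libraries at 3.46 and 3.64 CPM, and no 2 groups overlap.

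Ordered by mean level, the groups were blue_42 at 50.5 ± 7.45 CPM, blue_3 at 23.6 ± 1.59, dark_3 at 17.5 ± 1.59, blue_14 at 13.5 ± 2.48, dark_14 at 6.31 ± 0.828 and dark_42 at 3.55 ± 0.130 CPM (SD, n = 2 each). No neighbouring groups in this order overlapped in their libraries. With 2 libraries a group that is a weak criterion. The ratio of means was 14.2 for blue_42 over dark_42, 2.14 for blue_14 over dark_14 and 1.35 for blue_3 over dark_3. Counting error alone was sizeable in the shallow libraries: the exact 95% Poisson interval ran from 10.5 to 21.6 CPM in blue_14 b and from 3.50 to 8.85 CPM in dark_14 a. The libraries of a group had overlapping intervals except in blue_42, where they ran from 40.6 to 50.2 CPM in library a and from 50.7 to 61.1 CPM in library b. These intervals cover counting error only. In bulk RNA, fewer cells that make the transcript and less of it in each cell cannot be told apart.

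At 3 and 14 irradiations the differences between irradiated and dark cells are given as values from which no support is drawn, because their dark libraries belong to the series that chose the gene, so that a low dark_14 level was part of the choice. After 3 irradiations the SFRP1 log2 difference between blue_3 and dark_3 was 0.43 ± 0.16 (SE), with a 95% interval of 0.09 to 0.77. The gene was not called, at an adjusted p of 0.593 by edgeR's quasi-likelihood test with Benjamini-Hochberg adjustment. Only 2 of 12878 genes, 0.0155%, were called in that comparison, both of them higher in blue_3. They were SYT1 and CELF4, which are neuron markers, and all 10 neuron markers had a log2 difference above 0 there, with a median of 1.88. After 14 irradiations the SFRP1 log2 difference between blue_14 and dark_14 was 1.02 ± 0.25, with an interval of 0.51 to 1.54, and it was not called either (edgeR adjusted p = 0.627). No gene was called there by edgeR, a share of 0%, while 758 genes had an unadjusted p below 0.05 and DESeq2 called 2.

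Of the comparisons made for SFRP1, blue_14 against blue_3 alone used no library of the dark series or of the 42 irradiation stage. In it SFRP1 fell. The log2 difference between blue_14 and blue_3 was -0.84 ± 0.20, with an interval of -1.26 to -0.42 and an edgeR adjusted p of 0.0181. That is a 1.79-fold lower level in blue_14, and both blue_14 libraries lay below both blue_3 libraries. In that contrast 801 genes were called, 6.22% of those tested, of which 335 (2.60%) were lower and 466 (3.62%) higher in blue_14. The call was lost without blue_3 b (adjusted p = 0.118), without blue_14 a (adjusted p = 0.147) and without blue_14 b (adjusted p = 0.0509), and it held in the other 9 fits with a library left out.

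The remaining contrasts describe the pattern that chose the gene. SFRP1 differed by 3.82 ± 0.19 on the log2 scale between blue_42 and dark_42, and by 1.10 ± 0.15 between blue_42 and blue_3. Along the dark series it differed by -1.43 ± 0.20 between dark_14 and dark_3 and by -2.29 ± 0.21 between dark_42 and dark_3. The mean level was 2.76 times lower in dark_14 and 4.92 times lower in dark_42 than in dark_3. The irradiated series did not run the same way at every step, since blue_14 was below blue_3 and blue_42 was 3.73 times blue_14. The blue_42 level was also 2.89 times that of dark_3, the highest dark group, so it exceeded every dark level measured and not the dark_42 level alone. The excess of blue over dark was larger by 3.39 ± 0.26 on the log2 scale at 42 than at 3 irradiations, and by 2.80 ± 0.32 at 42 than at 14. The excess at 14 exceeded that at 3 by 0.59 ± 0.29, a value that contains the dark_14 and dark_3 difference and is likewise a description.

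Both blue libraries lay above both dark libraries for SFRP1 at 3, 14 and 42 irradiations. The choice of the gene set this arrangement at 42 and favoured it at 14, so nothing is read from how common it was: 23.7% of all tested genes had it at 3, 16.6% at 14, 21.3% at 42 and 0.745% at all 3 stages.

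Markers of other cell types also differed between some of these groups. The 10 neuron markers summed to 190 and 218 CPM in blue_3, against 166 and 169 CPM in dark_3, and to 123 and 104 CPM in blue_14, against 147 and 169 CPM in dark_14. At 42 irradiations they summed to 107 and 82.3 CPM in blue_42, against 109 and 71.7 CPM in dark_42, and these groups overlapped. NEFL held so much of the sum that the other 9 were also summed alone. Those 9 came to 42.4 and 55.5 CPM in blue_3, against 20.5 and 22.5 CPM in dark_3, to 46.0 and 50.6 CPM in blue_14, against 88.2 and 74.7 CPM in dark_14, and to 28.3 and 26.1 CPM in blue_42, against 37.0 and 30.0 CPM in dark_42. The direction of the difference in these 9 thus differed between stages.

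Fibroblast markers summed to 71.0 and 86.0 CPM in blue_3, against 49.5 and 50.4 CPM in dark_3, to 80.7 and 93.1 CPM in blue_14, against 106 and 81.8 CPM in dark_14, and to 57.2 and 73.3 CPM in blue_42, against 55.3 and 74.1 CPM in dark_42. Glia markers summed to 210 and 171 CPM in blue_3, against 186 and 198 CPM in dark_3, to 240 and 287 CPM in blue_14, against 275 and 275 CPM in dark_14, and to 202 and 206 CPM in blue_42, against 155 and 167 CPM in dark_42. The fibroblast groups separated at 3 irradiations and the glia groups at 42. Between dark_14 and dark_3, where SFRP1 was lower in dark_14, 9 of 10 neuron markers were called higher, beside 8.11% of all tested genes. All 3 tested glia markers were too, and 3 glia markers were not tested. Of the 10 fibroblast markers 6 were not tested, and COL1A1, FBLN1 and THY1 were called higher. The other tested fibroblast marker, DCN, passed the filter on low counts only through dark_14, at 1.43 and 1.66 CPM, so its call is not counted. Keratinocyte markers summed to 5745 and 5356 CPM in blue_42, against 4835 and 4377 CPM in dark_42. The part of the cell type markers in the SFRP1 differences was not tested.

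SFRP1 was the one member of its family found at a measurable level. SFRP2 and SFRP5 had no count in any library, which allows up to 1.43 CPM in the smallest library by the floor of 3 counts, and FRZB and SFRP4 had 1 count each in all 12 libraries together. These 4 genes were not tested. Among the 15 other secreted or cell-surface antagonists of Wnt, 8 were tested and 2 had no count. Their summed level was 106 and 104 CPM in blue_42, against 111 and 86.1 CPM in dark_42. SFRP1 made up 29.9% and 34.8% of the antagonist tags in blue_42, against 3.01% and 4.06% in dark_42. At 14 irradiations its share was 9.98% and 11.0% in blue_14, against 5.21% and 6.26% in dark_14. At 3 irradiations the share was 17.2% and 17.4% in blue_3, against 11.7% and 13.9% in dark_3.

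**Figure D2:**
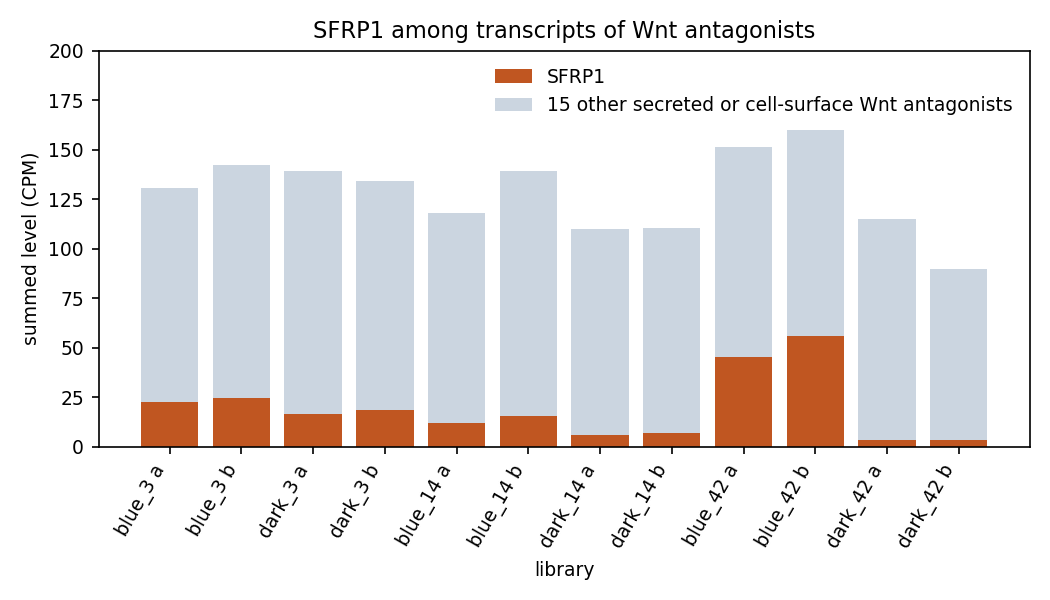
Summed level in CPM of SFRP1 (orange) and of the 15 other secreted or cell-surface Wnt antagonists (grey) in each library, stacked from 0. The grey part stays between 86.1 and 124 CPM while the orange part runs from 3.46 CPM in dark_42 a to 55.7 CPM in blue_42 b.

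None of the 8 other tested antagonists was called between blue_42 and dark_42, a contrast in which 158 genes, 1.23% of those tested, were called. DKK3, a divergent member of the Dickkopf family, was the only one of them among the 8 genes whose profile over the libraries was most like that of SFRP1 (r = 0.734). It had 21.7 and 23.8 CPM in blue_42, against 16.5 and 13.9 CPM in dark_42, and 24.5 and 24.0 CPM in blue_3, against 30.0 and 25.6 CPM in dark_3. At 42 irradiations the groups did not overlap, the log2 difference was 0.58 ± 0.15, and the edgeR adjusted p was 0.0658. In the dark series DKK3 fell by 1.07 ± 0.16 on the log2 scale in dark_14 and by 0.87 ± 0.15 in dark_42, each against dark_3 (edgeR adjusted p = 0.000422 and 0.000589). DKK1, which blocks LRP5 and LRP6, was not called in any of the 8 comparisons, with 17.3 and 10.4 CPM in blue_42, against 17.4 and 12.1 CPM in dark_42. KREMEN1, a receptor for Dickkopf proteins, was not called in any either, and was the most abundant of the other antagonists at 37.1 to 59.2 CPM.

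SOST, the LRP-binding antagonist sclerostin, was lower at 42 than at 3 irradiations in both series. It had 2.71 and 2.31 CPM in blue_42, against 6.36 and 6.80 CPM in blue_3 (log2 difference -1.38 ± 0.29, edgeR adjusted p = 0.00462), a call lost without blue_42 b. In the dark series it had 3.07 and 2.08 CPM in dark_42, against 7.61 and 7.63 CPM in dark_3 (-1.56 ± 0.28, edgeR adjusted p = 0.000771). At 42 irradiations its blue and dark libraries overlapped. APCDD1, a membrane-bound Wnt inhibitor, was lower in blue_42 than in blue_3 by 0.90 ± 0.26 on the log2 scale (edgeR adjusted p = 0.0397), a call lost without either blue_42 library, without blue_3 a and without either dark_3 library. TRABD2A, a protease that cleaves Wnt proteins, was low throughout and higher in dark_42 than in dark_3, at 1.92 and 1.82 CPM in dark_42 and 0.476 and 0.288 CPM in dark_3 (edgeR adjusted p = 0.0126). That call was lost without dark_3 a, dark_3 b or dark_42 b, and DESeq2 called neither TRABD2A nor APCDD1 in these contrasts.

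Across all Wnt pathway lists without SFRP1 there were 125 genes, of which 82 were tested and 43 were not, 13 of these for want of any count. Between blue_42 and dark_42, 2 of the 82 rose, PTK7 and PLAUR, and none fell, which is 2.44% against 1.23% of all genes tested (0.839% rose and 0.388% fell). With a library left out, the number was 1 to 3. The median log2 difference of the 82 was 0.005, against -0.003 over all tested genes. Between dark_42 and dark_3, where 17.7% of all genes were called (9.47% rose, 8.26% fell), 7 of the 82 rose and 10 fell, with a median of -0.05 against 0.02 over all genes. That count of 17 was 7 to 20 with a library left out and was lowest without dark_3 a. Between dark_14 and dark_3, with 12.7% of all genes called (8.11% rose, 4.61% fell), 10 rose and 4 fell, and the total of 14 was 1 without dark_14 a. Between blue_42 and blue_3, with 7.78% of all genes called (4.40% rose, 3.39% fell), 6 rose and 7 fell, and the total of 13 was 3 without blue_42 b. In blue_14 against blue_3, with 6.22% of all genes called (3.62% rose, 2.60% fell), 5 rose and 5 fell, which is 12.2% of the 82, and the total of 10 was 1 without blue_3 b. No gene of these lists was called between blue_3 and dark_3 or between blue_14 and dark_14 by edgeR. The shares over all tested genes there were 0.0155% and 0%. Contrasts that share a group share its libraries.

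**Figure D3:**
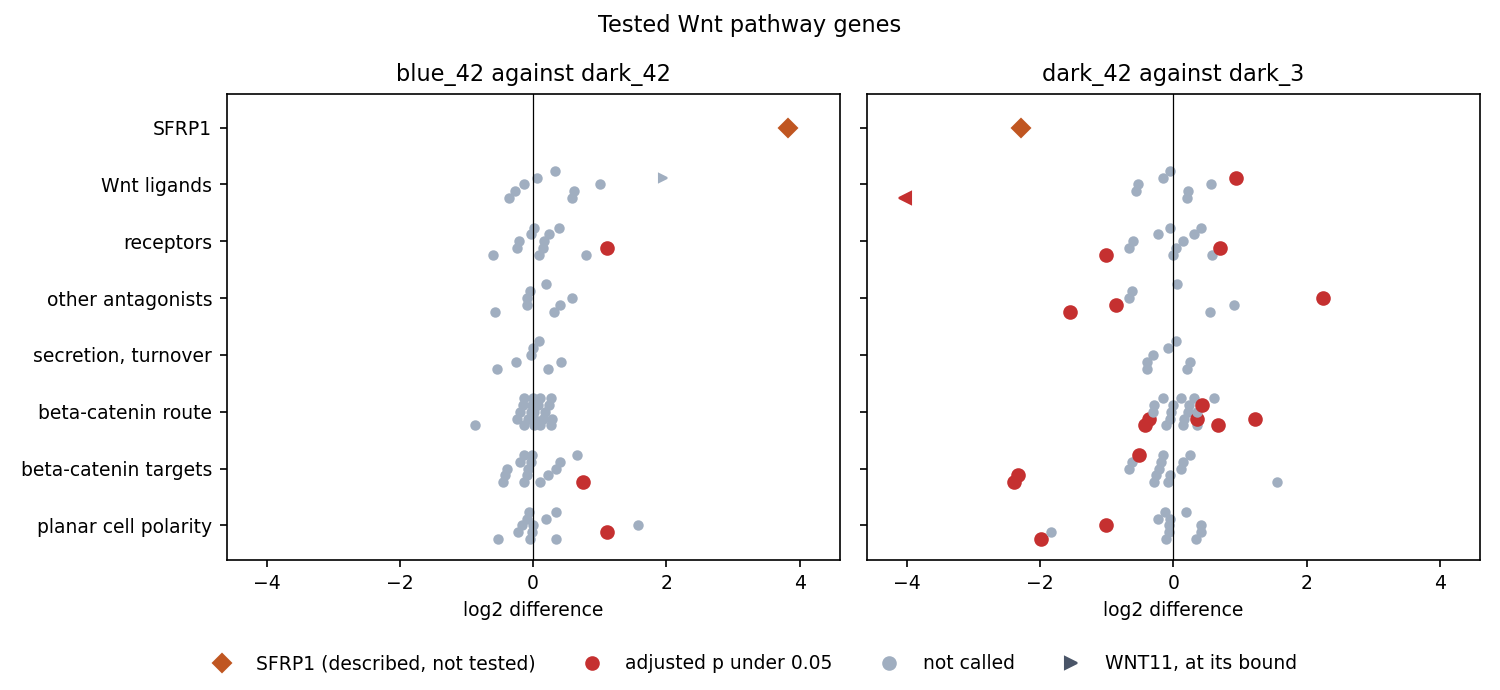
Log2 differences of the tested Wnt pathway genes by list, for blue_42 against dark_42 on the left and dark_42 against dark_3 on the right; each point is a gene, red where the edgeR adjusted p is under 0.05, and SFRP1 is the orange diamond, shown without a test. WNT11 is drawn as a triangle at its bound. SFRP1 lies at 3.82 on the left, beyond every gene drawn there at its own value, and at -2.29 on the right. SFRP1 was chosen for levels that enter both contrasts, so nothing is read from its place among these genes. WNT11 is at its lower bound of 1.96 on the left, so its order against SFRP1 there is not known.

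Of the 19 Wnt ligands, 9 were tested and 5 had no count. WNT10A, a ligand needed for hair and tooth formation, was the most abundant, with 226 and 247 CPM in blue_42, against 212 and 244 CPM in dark_42. The summed level of all ligands was 300 and 340 CPM in blue_42, against 299 and 333 CPM in dark_42, and the groups overlapped. No ligand was called between blue_42 and dark_42, beside 1.23% of all tested genes. WNT4, a ligand of kidney and reproductive tract development, was higher at 14 and at 42 than at 3 irradiations in both series. It had 19.8 and 27.2 CPM in blue_14, against 11.7 and 9.55 CPM in blue_3 (log2 difference 1.10 ± 0.26, edgeR adjusted p = 0.0163), a call lost without blue_3 b or blue_14 b. In the dark it had 14.0 and 16.0 CPM in dark_14, against 6.34 and 9.36 CPM in dark_3 (0.94 ± 0.26, edgeR adjusted p = 0.0212), a call lost without dark_3 a or either dark_14 library. At 42 irradiations it had 15.9 and 22.2 CPM in blue_42, against 11.7 and 9.55 CPM in blue_3 (log2 difference 0.84 ± 0.23, edgeR adjusted p = 0.0285), and 12.4 and 17.9 CPM in dark_42, against 6.34 and 9.36 CPM in dark_3 (0.94 ± 0.25, edgeR adjusted p = 0.0122). Of the 42 irradiation calls, the first was lost without blue_3 a, blue_3 b or blue_42 b, and the second without dark_3 a or dark_42 b. WNT7B was lower in blue_42 than in blue_3 by 0.51 ± 0.15 on the log2 scale (edgeR adjusted p = 0.0374), a call lost without blue_3 b, either blue_42 library or either dark_3 library. DESeq2 called neither WNT4 nor WNT7B between blue_42 and blue_3.

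WNT11, a ligand of the polarity routes, fell to no count in the dark_42 libraries, against 3.33 and 3.02 CPM in dark_3. By a floor of 3 counts over the group, its level was at least 16.4-fold lower in dark_42 than in dark_3 (edgeR adjusted p = 6.26e-05). DESeq2 did not call it. In blue_42 it had 12 counts in all, 0.904 and 0.607 CPM, against none in dark_42, and that contrast was not called. The medians given above are unchanged with WNT11 set to its bound.

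Of the 16 receptors and co-receptors, 12 were tested, and PTK7 alone was called between blue_42 and dark_42, beside 1.23% of all tested genes. PTK7 encodes a catalytically inactive receptor tyrosine kinase that acts with Wnt ligands and in planar polarity. It had 97.9 and 98.9 CPM in blue_42, against 45.3 and 45.6 CPM in dark_42 (log2 difference 1.11 ± 0.15, edgeR adjusted p = 0.000625). The call held in all 12 fits with a library left out. At 3 irradiations the groups were close, with 96.3 and 75.3 CPM in blue_3, against 96.4 and 87.4 CPM in dark_3. The excess of blue over dark was larger by 1.21 ± 0.20 on the log2 scale at 42 than at 3 irradiations (edgeR adjusted p = 0.0136), a call lost without blue_3 b, either blue_42 library or either dark_3 library. In that contrast 56 genes, 0.435% of those tested, were called, 0.272% with a larger and 0.163% with a smaller excess.

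PTK7 fell in dark_42 by 1.01 ± 0.15 on the log2 scale against dark_3 (edgeR adjusted p = 0.000104). Its level in blue_42 stood near both groups at 3 irradiations, whereas SFRP1 in blue_42 stood above them. At 14 irradiations PTK7 was at 152 and 137 CPM in blue_14, against 125 and 89.4 CPM in dark_14, so its dark series did not fall at each step as that of SFRP1 did. FZD6 was the most abundant frizzled receptor, at 84.7 and 71.6 CPM in blue_42, against 94.5 and 90.0 CPM in dark_42, and was not called in any of the 8 comparisons. All frizzled receptors together summed to 150 and 138 CPM in blue_42, against 154 and 156 CPM in dark_42.

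Among 22 tested genes of the beta-catenin route inside the cell, none was called between blue_42 and dark_42, beside 1.23% of all tested genes. An absence of calls among 22 genes carries no information at that share. Between dark_42 and dark_3, 4 rose and 2 fell, beside 9.47% of all tested genes that rose and 8.26% that fell. TNKS2, a poly-ADP-ribosylating enzyme that marks AXIN for breakdown, rose to 34.8 and 42.1 CPM in dark_42, against 24.6 and 23.8 CPM in dark_3 (log2 difference 0.67 ± 0.13, edgeR adjusted p = 0.00155). CSNK1A1, the kinase that primes beta-catenin for degradation, rose by 0.43 ± 0.11 in that contrast (edgeR adjusted p = 0.0105), a call lost without dark_3 a, dark_3 b or dark_42 b. PYGO2, a cofactor of beta-catenin in the nucleus, fell by 0.43 ± 0.12 (edgeR adjusted p = 0.0161), a call lost without dark_3 a or either dark_42 library. Between blue_42 and blue_3, 4 of the 22 rose and none fell, beside 4.40% of all tested genes that rose and 3.39% that fell. DESeq2 called none of these 4, and each edgeR call was lost without either blue_42 library. TNKS2 was 1 of those 4, and it was also called higher in blue_14 than in blue_3. That TNKS2 call was lost with DESeq2, in a fit on the compared libraries, and without any blue_3 or blue_14 library.

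Several usual readouts of beta-catenin activity were nearly undetected. AXIN2 had 8 counts in all 12 libraries together, LEF1 and NKD1 had 2 each, NKD2 had 1 and LGR5 had none, and none of these was tested. Of 24 listed target genes 16 were tested. SP5, a listed target, was called lower at 42 than at 3 irradiations in both series by edgeR, and by DESeq2 in neither. The call in the dark series was lost without either dark_3 library or dark_42 b. That in the irradiated series was lost without blue_3 a or either blue_42 library. The SP5 log2 differences over the fits run were -3.28 to -1.85 (dark_42 against dark_3) and -3.56 to -2.68 (blue_42 against blue_3). PLAUR, the urokinase receptor, rose to 37.4 and 42.0 CPM in blue_42, against 25.0 and 22.4 CPM in dark_42 (log2 difference 0.75 ± 0.17, edgeR adjusted p = 0.0301). That call was lost without dark_42 b, blue_42 a or blue_42 b. CCND1, which encodes cyclin D1, had 703 and 699 CPM in blue_42, against 703 and 599 CPM in dark_42, and CD44 had 509 and 517 CPM in blue_42, against 500 and 541 CPM in dark_42. Neither was called in any of the 8 comparisons.

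BMP4, a growth factor of the TGF-beta superfamily and a listed target, fell in both series. It fell to 12.3 and 16.3 CPM in blue_42, against 37.9 and 55.2 CPM in blue_3 (log2 difference -1.69 ± 0.23, edgeR adjusted p = 0.00054). In the dark series it fell to 12.2 and 5.98 CPM in dark_42, against 45.0 and 47.1 CPM in dark_3 (-2.34 ± 0.25, edgeR adjusted p = 3.65e-05). MYC, the proto-oncogene transcription factor, rose to 22.1 and 32.9 CPM in blue_14, against 10.3 and 7.61 CPM in blue_3 (1.56 ± 0.22, edgeR adjusted p = 0.000406), a contrast in which SFRP1 fell. MYC was also called higher in blue_42 than in blue_3, with log2 differences of 0.73 to 1.15 over the fits run. SFRP1 was higher in blue_42 than in blue_3 as well.

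In the polarity route, 13 genes were tested, and PTK7 was again the one called between blue_42 and dark_42, beside 1.23% of all tested genes. PRICKLE1, a cytoplasmic core polarity protein, fell in both series. It had 4.26 and 2.19 CPM in blue_42, against 9.67 and 15.2 CPM in blue_3 (log2 difference -1.94 ± 0.32, edgeR adjusted p = 0.000791), and 3.07 and 1.95 CPM in dark_42, against 9.04 and 11.1 CPM in dark_3 (-2.00 ± 0.35, edgeR adjusted p = 0.000597). Unlike SFRP1, it had no separation of its blue and dark libraries at 42 irradiations. The secretion and receptor turnover list had 7 tested genes, and none was called between blue_42 and dark_42. With 1.23% of all tested genes called, an absence of calls among 7 genes carries no information. WLS, the carrier of Wnt proteins to the cell surface, had 58.5 and 60.9 CPM in blue_42, against 54.9 and 57.1 CPM in dark_42.

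Because SFRP1 is known from other settings as a target of promoter methylation and Polycomb repression, genes of those machineries were listed as well. Of 21 members 19 were tested, and none was called between blue_42 and dark_42, beside 1.23% of all tested genes. At that share an absence of calls among 19 genes carries no information. DNMT1, the maintenance DNA methyltransferase, had 314 and 286 CPM in blue_42, against 323 and 245 CPM in dark_42. It was lower in dark_14 than in dark_3 by 0.51 ± 0.15 on the log2 scale (edgeR adjusted p = 0.0318), and EZH2, the Polycomb methyltransferase, was lower there by 0.51 ± 0.14 (edgeR adjusted p = 0.0212). Both calls were lost without dark_3 a, dark_3 b or dark_14 a. Between dark_14 and dark_3, 3 of the 19 were called, all lower, beside 12.7% of all tested genes (8.11% rose, 4.61% fell). Between dark_42 and dark_3, CBX2 fell by 1.39 ± 0.29 and EED by 0.54 ± 0.13 (edgeR adjusted p = 0.00272 and 0.00762), both parts of Polycomb complexes. These were the 2 of the 19 called there, beside 17.7% of all tested genes (9.47% rose, 8.26% fell). The CBX2 call was lost without dark_42 b, and the EED call without dark_42 b, dark_3 a or dark_3 b. In blue_14 against blue_3, 1 of the 19 was called higher and 1 lower, beside 3.62% and 2.60% of all tested genes. The lower one was again EZH2, with log2 differences of -0.70 to -0.51 over the fits run. DNA methylation was not measured in these libraries.

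In GENCODE release 29 on GRCh38, SFRP1 occupies bases 41261958 to 41309497 of chromosome 8 and is read from the minus strand. Within 1 Mb of it there are 37 annotated genes, 10 of them protein-coding, and 9 were tested, all at higher coordinates. The 3 overlapping genes with a row in the table had no count. None of the 9 was called between blue_42 and dark_42, beside 1.23% of all tested genes, and their log2 differences there ran from -0.04 to 0.66. The nearest, GOLGA7, a Golgi protein gene 180.9 kb away, had 51.3 and 48.8 CPM in blue_42, against 54.9 and 47.7 CPM in dark_42. KAT6A, a histone acetyltransferase gene 620.0 kb away, had 130 and 128 CPM in blue_42, against 125 and 121 CPM in dark_42.

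Between dark_42 and dark_3, 3 of the 9 neighbours were called, 2 higher and 1 lower, where 17.7% of all tested genes were called (9.47% higher, 8.26% lower). GINS4, a subunit of the replication helicase, fell by 0.58 ± 0.16 on the log2 scale (edgeR adjusted p = 0.0141). PLAT, tissue plasminogen activator, rose to 51.1 and 147 CPM in dark_42, against 10.3 and 7.49 CPM in dark_3 (3.48 ± 0.82, edgeR adjusted p = 0.0331). The antisense gene IKBKB-DT rose by 1.93 ± 0.53 (edgeR adjusted p = 0.0163), and its counts are uncertain because no source used here gives the strand setting of the counting. Each of these 3 calls was lost without dark_3 a, without dark_3 b and without dark_42 b, and the PLAT call also without either blue_3 library. DESeq2 did not call IKBKB-DT, and PLAT was not called with no filter on low counts.

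**Figure D4:**
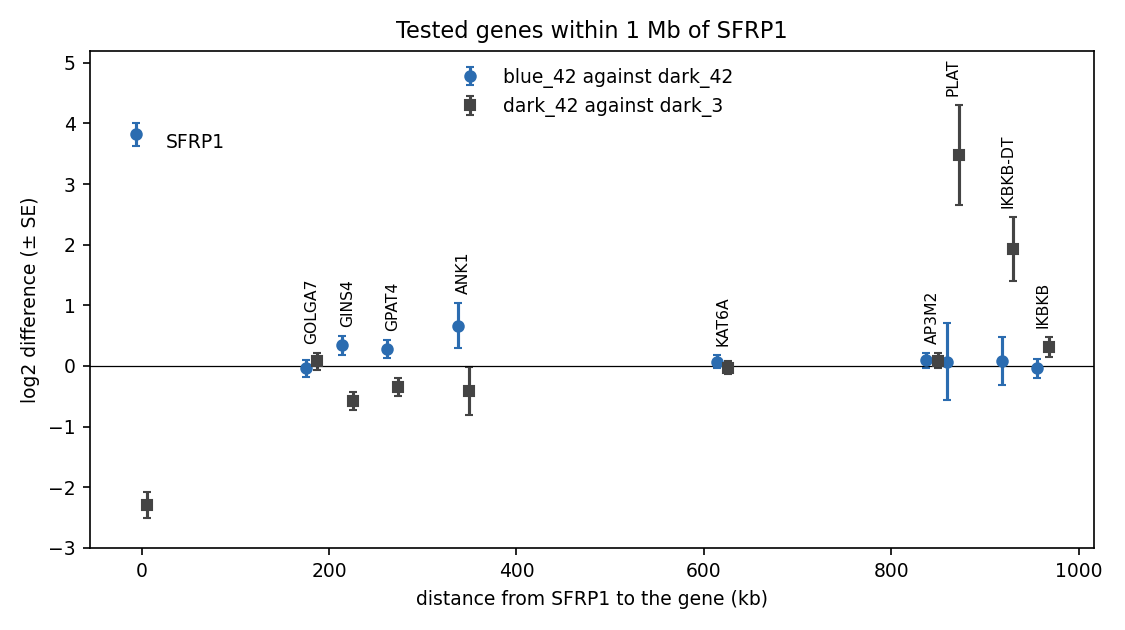
Log2 differences with standard errors of SFRP1 and the 9 tested genes within 1 Mb, against the distance in kb from SFRP1; circles are blue_42 against dark_42 and squares dark_42 against dark_3. At SFRP1 the values are 3.82 and -2.29, while the neighbours' circles lie between -0.04 and 0.66.

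Genes with a similar profile were ranked by Pearson's r with SFRP1 on log2 CPM over the 12 libraries, among 632 other genes with at least 10 CPM in the highest group mean and a range of group means of at least 1 on the log2 scale. The median r of these genes was -0.08, 4 were above 0.7 and 13 below -0.7. The libraries of a group share their culture history, so r is a description. Among the 8 most alike were GJA1 (r = 0.782), DPYSL3 (0.763), DKK3 (0.734), CALD1 (0.693), KRT81 (0.690), TUBB (0.648) and PDZD11 (0.590). By Spearman's rho 6 of the 8 were again among the 8 highest. PDZD11 was the weakest, with rho at 0.252.

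None of these 7 differed as much as SFRP1 between blue_42 and dark_42, where they were compared by their group means. SFRP1 was chosen for levels that enter this contrast, so nothing is read from that order. GJA1, the gap junction protein connexin 43, had 20.0 and 11.5 CPM in blue_42, against 8.20 and 6.24 CPM in dark_42. CALD1, the actin-binding protein caldesmon, had 46.5 and 48.1 CPM in blue_42, against 22.5 and 20.3 CPM in dark_42. KRT81, a hair keratin, had 57.3 and 89.4 CPM in blue_42, against 9.35 and 14.8 CPM in dark_42, but its dark_14 libraries, at 102 and 38.8 CPM, lay far apart.

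The genes that ran most opposite were B3GALT5 (r = -0.926), BMP3 (-0.887), CEACAM6 (-0.796) and EPB41L4A (-0.789), of which 2 were also among the 4 lowest by Spearman's rho. B3GALT5, a galactosyltransferase of glycan chains, had 1.81 and 1.70 CPM in blue_42, against 12.9 and 13.4 CPM in dark_42. Along the dark series its level was higher where that of SFRP1 was lower, at 2.38 and 2.30 CPM for dark_3 libraries and 11.5 and 7.54 CPM for dark_14 libraries. BMP3, a divergent bone morphogenetic protein, had 6.20 and 8.74 CPM in blue_42, against 15.5 and 23.0 CPM in dark_42. CEACAM6, a cell adhesion molecule, had 10.1 and 6.68 CPM in blue_42, against 16.1 and 16.4 CPM in dark_42.

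**Figure D5:**
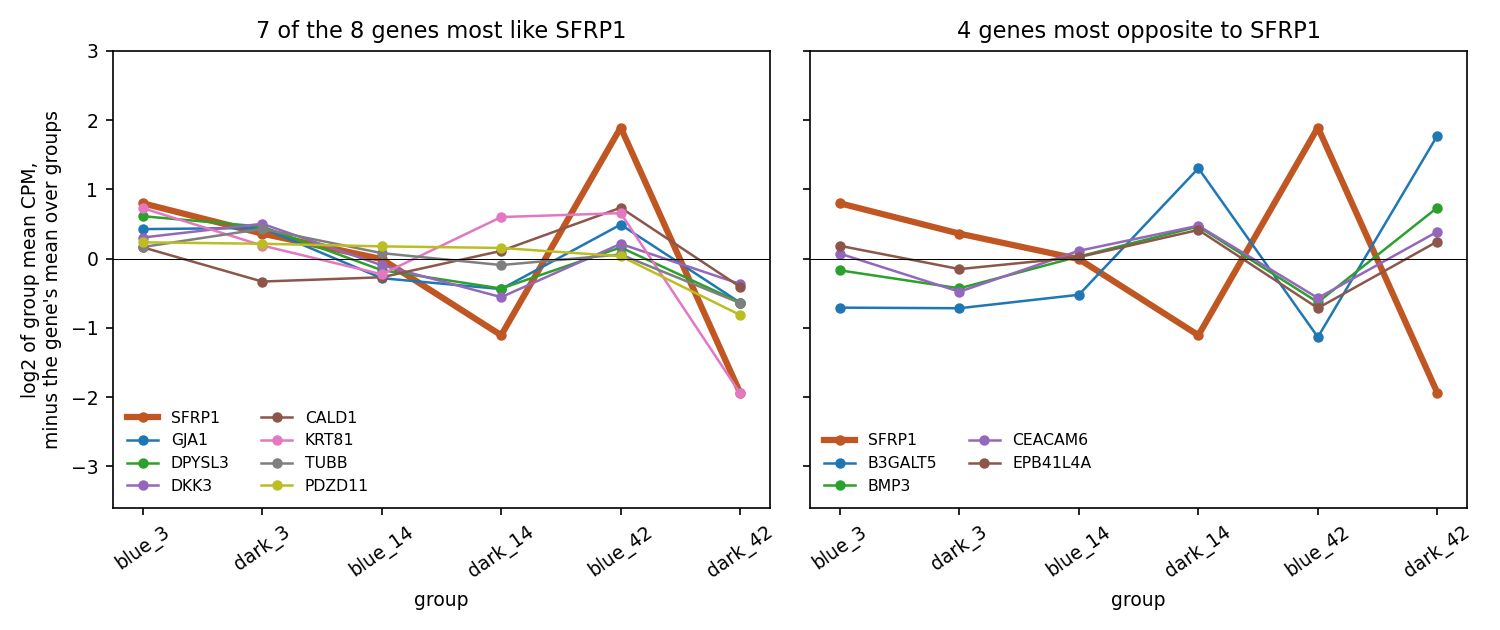
Log2 of the group mean CPM, centred on each gene's mean over the 6 groups, for SFRP1 (thick orange line) with 7 of the 8 genes most like it on the left and the 4 most opposite on the right. SFRP1 has the highest point of the left panel in blue_42, a level for which it was chosen. B3GALT5 on the right runs against SFRP1 with r = -0.926.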

How the data were processed

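RNA from 12 HaCaT libraries was extracted with TRIzol and made into QuantSeq 3' mRNA-Seq FWD libraries, per the labels' protocols. The authors deposited raw read counts, as whole numbers for each gene, in a table with 1 column per library. STAR, featureCounts and GRCh38 are named in the submitters' processing notes, without versions. No source used here gives the annotation release, the strand setting or any use of molecular identifiers.

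Groups came from the sample titles. Genes were kept by filterByExpr in edgeR 4.0.16 (R 4.3.3) at a minimum count of 10, which left 12878 of 45372 rows, and libraries were scaled by TMM. The 6 group means were fitted together in a robust quasi-likelihood model, with 6 residual degrees of freedom and a common biological coefficient of variation of 9.41%. Tests were two-sided in 8 comparisons, with Benjamini-Hochberg adjustment over all tested genes, and the threshold for a call was an adjusted p below 0.05. Standard errors came from the test statistic. The fitting steps were tested on simulated counts. Compared within a group, the libraries gave a chi-square over its degrees of freedom of 1.61 (dark_3) or 4.71 to 7.98 (all others), above sampling noise, and each library was kept as 1 replicate. Intervals of CPM are exact 95% Poisson intervals.

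Gene positions came from GENCODE release 29, and row symbols from the deposited table, with rows of the same symbol summed for levels of pathway and marker lists. SFRP1, the pathway and marker lists and the tests were chosen with earlier results of these data known. Named genes were the SFRP family, the 3 most abundant members of each list, up to 4 called members of each list in each comparison, every tested gene within 1 Mb of SFRP1, and the 8 genes most like and 4 most opposite to it by Pearson's r (log2 CPM, prior count 2); 1 of the 8 is not reported here, while counts of genes include it. Alternatives were RLE scaling, DESeq2 1.42.0, no filter, a filter at 5 CPM in 2 libraries, the replicate letter as a block, fits restricted to the libraries compared, and omission of each library in turn.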

Additional observations from a re-analysis of the deposited data

Results flagged for a closer look

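PTK7, the catalytically inactive Wnt co-receptor kinase, differed between the stages in its irradiated against dark difference. The excess of blue over dark was larger at 42 than at 3 irradiations by 1.21 ± 0.20 on the log2 scale, by edgeR's test of that difference (adjusted p = 0.0136). The call held in 7 of 12 fits with a library left out and was lost without blue_3 b, either blue_42 library or either dark_3 library. Its level was 97.9 and 98.9 CPM in blue_42, against 45.3 and 45.6 CPM in dark_42, and 96.3 and 75.3 CPM in blue_3, against 96.4 and 87.4 CPM in dark_3.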

How the results depend on the processing

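SFRP1 kept its direction in each of the 8 comparisons under every alternative run. With a library left out, its log2 difference ran from 0.34 to 0.53 (blue_3 against dark_3), 0.86 to 1.23 (blue_14 against dark_14), -1.01 to -0.63 (blue_14 against blue_3), 3.67 to 3.96 (blue_42 against dark_42), -1.61 to -1.33 (dark_14 against dark_3), -2.38 to -2.20 (dark_42 against dark_3), 0.93 to 1.23 (blue_42 against blue_3) and 3.25 to 3.54 (difference of light effects, 42 against 3). Counts of called genes moved more, and the cause was not tested. With a library left out they ran from 0 to 6, 0 to 11, 110 to 1076, 24 to 235, 336 to 1987, 765 to 2574, 258 to 1224 and 2 to 209 in the same order. Called Wnt genes ran from 1 to 12 in blue_14 against blue_3, 1 to 3 in blue_42 against dark_42, 1 to 15 in dark_14 against dark_3, 7 to 20 in dark_42 against dark_3, 3 to 17 in blue_42 against blue_3 and 0 to 4 in the difference of light effects. The fewest calls between blue_42 and dark_42 came without blue_42 b, and between dark_42 and dark_3 without dark_3 a.

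For blue_3 against dark_3, with 2 genes called, DESeq2 called 1, no filter 54 with 3 Wnt genes among them, the 5 CPM filter 0, and a fit on the compared libraries 22. For blue_14 against dark_14, with 0 called, DESeq2 called 2 and no filter 14. For blue_14 against blue_3, no filter gave 1348 and the compared libraries 503, against 801. For blue_42 against dark_42, no filter gave 420 with 5 Wnt genes and the compared libraries 100, against 158 with 2. In dark_14 against dark_3 the compared libraries gave 2651 against 1638, and DESeq2 called 9 Wnt genes against 14. DESeq2 called 10 Wnt genes against 17 in dark_42 against dark_3, and 615 genes with 5 Wnt genes against 1002 with 13 in blue_42 against blue_3. For the difference of light effects, no filter gave 288 with 4 Wnt genes, against 56 with 1. IKBKB, a neighbour that was not called between blue_42 and dark_42, differed by 0.22 on the log2 scale without dark_42 b, the other sign from the value with all libraries, and ranged from -0.26 to 0.22 over the left-out libraries.

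The labels do not pair the letters a and b, and the correlation of same-letter deviations between groups ran from -0.29 to 0.41. With the letter as a replicate block, 0 genes were called in blue_3 against dark_3, and 92 with 2 Wnt genes in the difference of light effects, while the other counts stayed within 1.5 times. Of 69 calls of named Wnt, methylation or neighbouring genes, 12 held in every fit with a library left out. Depth limits the low genes most: 3 counts stand for 1.43 CPM in the smallest library, and 43 Wnt genes were too low to test.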
